A study of Mus musculus with 11 samples.

Results

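The genes described here are 10 regulators and targets of the NRF2 antioxidant pathway: Nfe2l2, Keap1, Nqo1, Hmox1, Gclc, Gclm, Txnrd1, Srxn1, Gsr and Slc7a11. All array probes annotated to these symbols were taken, which gave 21 probes for 9 of the 10 genes, out of 45281 probes and 19057 genes with a probe. Gsr, glutathione reductase, had no probe in the annotation used here and was not analysed here. Expression was compared between 5 mammary tumours of PyMT/SIRT6 mice and 6 of PyMT mice, all females killed at 12 weeks of age, with 1 array per tumour. The PyMT/SIRT6 mice carried the Sirt6BAC allele, which overexpresses SIRT6, a nuclear NAD-dependent deacylase. The PyMT mice were wild type for that allele, and both groups carried the polyoma middle T oncogene, which gives rise to spontaneous mammary tumours. The labels name neither the promoter of the oncogene nor the strain background, nor whether each tumour came from a different mouse, so the p-values below measure the spread between these samples.

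NRF2, the product of Nfe2l2, is a transcription factor that is held at a low level by KEAP1, an adaptor that hands it to a ubiquitin ligase. Oxidants and electrophiles modify KEAP1, NRF2 then escapes degradation, pairs with small MAF proteins and binds antioxidant response elements near genes of glutathione synthesis, thioredoxin recycling, quinone reduction and haem breakdown. In tumours this programme is known for protecting cells against oxidative stress, and much of the control of NRF2 acts on the protein, which arrays of RNA do not measure.

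The promoters of several members are shown here because the antioxidant response element is the sequence that joins these genes. RefSeq windows on build GRCm38.p6 were found for 7 of the 10 genes, 9 windows in all, and the 250 bases before the transcript start were searched on both strands for the core TGACNNNGC and its variant TGAGNNNGC, which cannot share a start. At least 1 of these matches lay in 7560 of 32851 windows of all genes (23.0%), and in 5 of the 9 windows of the members. The 4 windows below are those of Nqo1, the member whose intensity varied most between tumours, of Gclm and Srxn1, targets that were bright on the arrays, and of Nfe2l2 itself. Capitals mark the matches, and a match is a description of letters, not a measured binding site.
Nqo1, chr8:107403206-107403455, minus strand: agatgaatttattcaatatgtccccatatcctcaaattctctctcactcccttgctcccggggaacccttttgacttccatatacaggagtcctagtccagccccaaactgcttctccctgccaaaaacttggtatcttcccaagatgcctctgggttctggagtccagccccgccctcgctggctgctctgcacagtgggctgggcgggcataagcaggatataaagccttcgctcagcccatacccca
Gclm, chr3:122245307-122245556, plus strand: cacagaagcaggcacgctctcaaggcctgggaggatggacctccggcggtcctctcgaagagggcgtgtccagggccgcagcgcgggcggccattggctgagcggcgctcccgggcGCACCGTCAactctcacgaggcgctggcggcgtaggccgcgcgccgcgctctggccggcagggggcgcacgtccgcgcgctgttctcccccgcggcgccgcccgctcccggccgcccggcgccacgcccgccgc
Srxn1, chr2:152105274-152105523, plus strand: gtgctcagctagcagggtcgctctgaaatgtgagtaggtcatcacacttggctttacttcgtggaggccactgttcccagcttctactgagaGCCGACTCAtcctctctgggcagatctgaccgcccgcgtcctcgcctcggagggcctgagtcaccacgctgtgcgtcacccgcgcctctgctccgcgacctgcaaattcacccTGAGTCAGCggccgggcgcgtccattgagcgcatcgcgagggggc
Nfe2l2, chr2:75704664-75704913, minus strand: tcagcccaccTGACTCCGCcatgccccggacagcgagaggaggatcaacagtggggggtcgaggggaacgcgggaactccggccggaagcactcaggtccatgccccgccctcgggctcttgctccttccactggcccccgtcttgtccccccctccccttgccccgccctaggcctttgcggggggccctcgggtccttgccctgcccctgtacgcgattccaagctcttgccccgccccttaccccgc
Srxn1 held 2 matches of the variant, TGAGTCAGC starting 45 bases before the start and, on the other strand, GCCGACTCA starting 158 bases before it. Gclm held 1 match of the core on the other strand (GCACCGTCA, 134 bases before the start), and Nfe2l2 held 1 (TGACTCCGC, 240 bases before it). The Nqo1 window held none of these letters.

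Intensities are given per probe on the linear scale, as deposited, with nearly the same quantiles on every array. Medians of the arrays lay between 157.5 and 157.6. Sirt6 checked the labels: its brightest probe, ILMN_2684909, lay between 291 and 399 in PyMT/SIRT6 tumours and between 199 and 236 in PyMT tumours. The change of 0.61 ± 0.09 (SE) on the log2 scale had a limma adjusted p of 0.0574. With every probe tested separately, ILMN_2684909 and the Sirt6 probe ILMN_2684910 each had a limma adjusted p of 0.0386. The Sirt6 probe ILMN_2671176 had 0.183. Luminal keratin Krt8 was bright in all tumours, at 5017 to 7912 in PyMT/SIRT6 and 4814 to 10810 in PyMT. As a measured floor, 25 probes of 18 Y-linked genes, which these female mice lack, had mean intensities from 142 to 159.9 with a median of 149. The mean log2 level of skeletal muscle markers ran from 7.40 to 11.47 in PyMT/SIRT6 and from 7.39 to 11.60 in PyMT tumours, with 18 of 19 markers higher, 0 past the threshold and none listed at 0. It was above 9 in 4 arrays, called muscle-rich below, which were PyMT/SIRT6 replicates 1, 4 and 5 and PyMT replicate 5.

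No member passed the test between PyMT/SIRT6 and PyMT tumours. Of the 7 genes that passed the filter on dim features, 0 were past the adjusted threshold of 0.05 in limma, and 0 had an unadjusted p under 0.05. Over all 14726 tested features 2 passed, which is 0.0136%, and 653 had an unadjusted p under 0.05, which is 4.43%. The adjusted p-values of the members lay between 0.983 and 0.985. All 7 changes were below 0, where 46.9% of all tested features had a positive change. The 7 genes were read from the same tumours, so their signs are not independent. Slc7a11 lay close to the Y-linked range, and another bright Srxn1 probe, ILMN_2667346, had a change of 0.01. Nfe2l2 was 0.011 without PyMT replicate 1, and Keap1 was 0.032 and Gclm 0.063 with the muscle-rich arrays left out. The median of the 7 was -0.09, against -0.0053 over all tested features. In each of the 7 genes the arrays of the genotypes overlapped, where 0.489% of all tested features had groups that did not overlap.

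**Figure D1:**
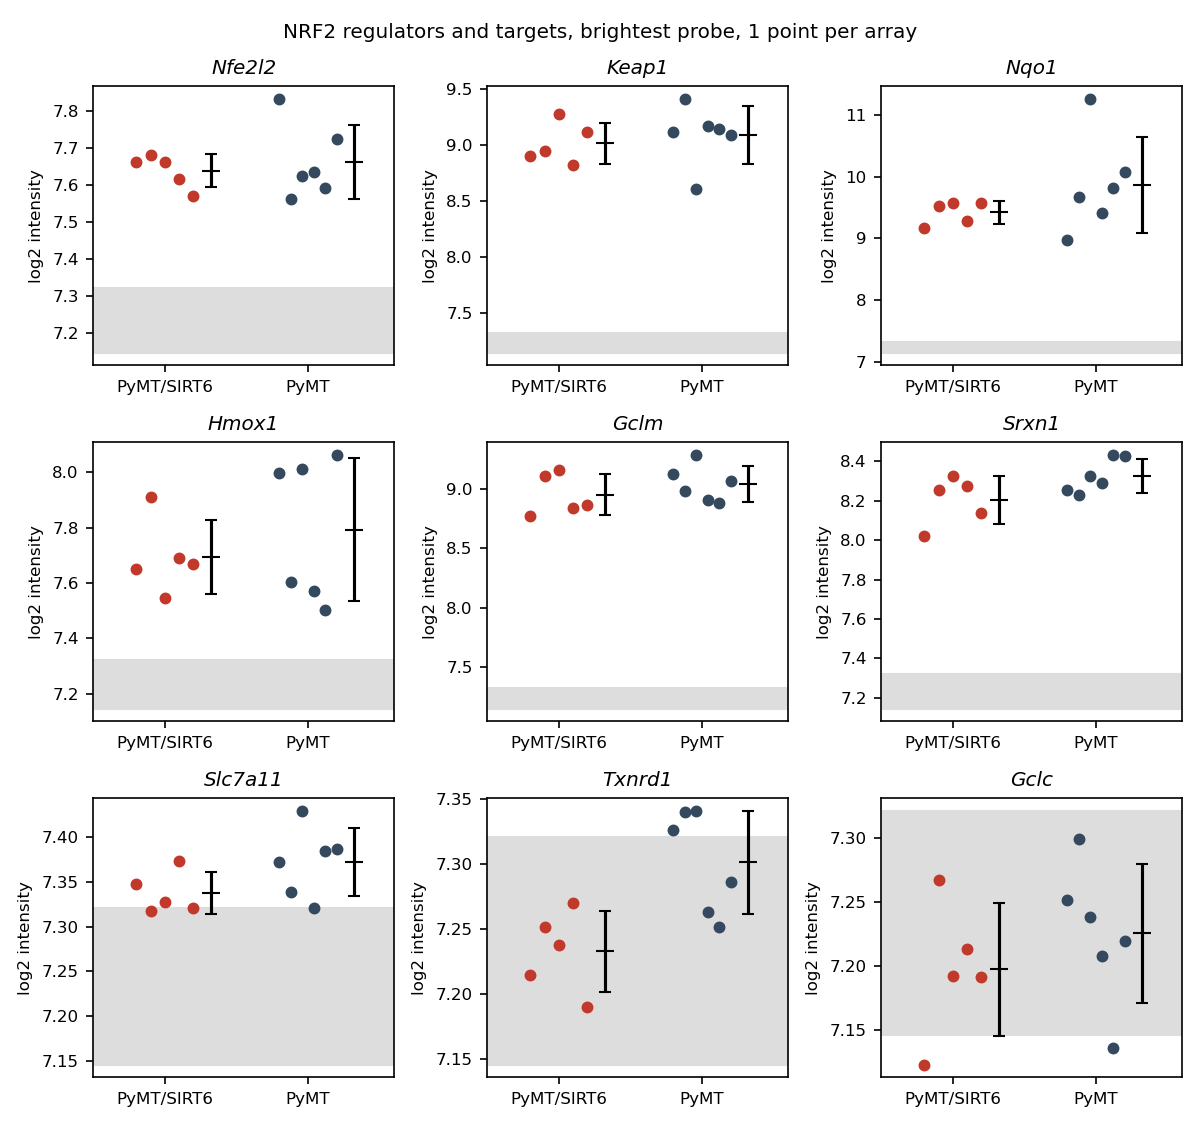
Log2 intensity of the brightest probe of the 9 genes with a probe, 1 point per array, PyMT/SIRT6 (5 arrays, red) left of PyMT (6 arrays, dark blue), with the mean and SD as a black bar. The grey band spans the mean log2 levels of the Y-linked probes (7.15 to 7.32). Vertical scales differ between genes. The genotypes overlap in every panel, and Txnrd1 and Gclc lie largely within the band.

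Neither regulator differed by more than its spread. Nfe2l2, which encodes NRF2, was read by probe ILMN_1224128 at 202, 205, 202, 196 and 190.0 in PyMT/SIRT6 replicates 1 to 5, against 189 to 228 with a median of 198 in PyMT tumours. These levels are only moderately above the Y-linked range, and PyMT replicate 1 was the highest array. The log2 change was -0.02 ± 0.05 (SE), with a 95% interval from -0.14 to 0.09. The second Nfe2l2 probe, ILMN_1214369, lay within the Y-linked range on all arrays, at 148 to 156 in PyMT/SIRT6 and 151 to 159 in PyMT tumours.

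Keap1 encodes the repressor of NRF2 and had 5 probes, of which 4 were bright. Its brightest probe, ILMN_1258406, stood at 479.8, 495, 620.2, 454 and 555 in PyMT/SIRT6 replicates 1 to 5, against 391 to 683 with a median of 560.4 in PyMT tumours. The lowest and the highest array were both PyMT tumours, replicates 3 and 2, and all PyMT/SIRT6 arrays fell between them. The log2 change was -0.08 ± 0.14 (SE), with an interval from -0.37 to 0.22, so that fold changes from 0.775 to 1.16 remain within it. It ran from -0.17 without PyMT replicate 3 to -0.012 without PyMT replicate 2, and was 0.032 with the muscle-rich arrays left out. With the skeletal muscle mean as a covariate it was -0.078. The other bright probes had changes of -0.08 (ILMN_2707771), -0.13 (ILMN_2993267) and -0.08 (ILMN_2621346) in the fit over every probe. The 4 bright probes therefore gave similar small differences, each within its spread.

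Nqo1, the quinone reductase widely used as a readout of NRF2 activity, varied most between tumours, with an SD of 0.61 on the log2 scale over the 11 arrays. Its bright probe, ILMN_2726371, stood at 576, 737, 763, 624 and 760.3 in PyMT/SIRT6 replicates 1 to 5, against 505 to 2460.4 with a median of 856 in PyMT tumours. PyMT replicate 3 was the highest and PyMT replicate 1 the lowest, so the PyMT tumours spanned a 4.87-fold range and held all PyMT/SIRT6 tumours inside it. The means on the log2 scale were 9.43 ± 0.19 (SD, n = 5) in PyMT/SIRT6 and 9.87 ± 0.78 (SD, n = 6) in PyMT tumours. The change was -0.45 ± 0.31 (SE; limma adjusted p = 0.983), and its interval ran from -1.11 to 0.22. Without PyMT replicate 3 the change was -0.17. The second Nqo1 probe, ILMN_2766386, stayed near the Y-linked range, at 147 to 165 in PyMT/SIRT6 and 139.7 to 161 in PyMT tumours.

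Hmox1 encodes haem oxygenase, which opens the haem ring and is expressed by macrophages as well as by stressed epithelium. Its single probe stood at 201, 241, 187, 207 and 203 in PyMT/SIRT6 replicates 1 to 5, against 181 to 268 with a median of 223 in PyMT tumours. PyMT replicates 1, 3 and 6 were the highest 3 arrays, at 256, 258 and 268, and the other PyMT tumours stood at 194 or below. The log2 change was -0.10 ± 0.11 (SE), with an interval from -0.34 to 0.15. Leaving out PyMT/SIRT6 replicate 2 gave -0.15 and PyMT/SIRT6 replicate 3 gave -0.061, while leaving out PyMT replicates 1, 3, 5 or 6 gave -0.057, -0.054, -0.16 and -0.044. Macrophage markers overlapped as well, their mean log2 level running from 8.94 to 9.31 in PyMT/SIRT6 and from 8.83 to 9.24 in PyMT tumours. Of the 17 tested macrophage markers 16 were higher, 0 passed the adjusted threshold and none was listed at 0. Across the 11 arrays Hmox1 and the macrophage mean had a Pearson r of -0.0042. Among the marker lists its r farthest from 0 was -0.810, with adipocytes (adjusted permutation p = 0.115). Next came 0.669 with erythroid cells and -0.663 with T and NK cells (adjusted permutation p = 0.200 for each). With the macrophage mean as a covariate the Hmox1 change was -0.13, and with the skeletal muscle mean -0.050. In bulk tissue fewer cells of a type and less RNA per cell cannot be told apart.

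None of the glutathione genes passed the test. Glutathione synthesis starts with glutamate-cysteine ligase, made of the catalytic subunit Gclc and the modifier subunit Gclm. It draws on cystine imported with xCT, the transporter light chain that Slc7a11 encodes. Gclm stood at 438, 555, 575, 459 and 468 in PyMT/SIRT6 replicates 1 to 5, against 473 to 627 with a median of 522 in PyMT tumours. PyMT/SIRT6 replicates 1, 4 and 5 held the 3 lowest values, and they are also the 3 muscle-rich arrays of that genotype. The log2 change was -0.09 ± 0.11 (SE), with an interval from -0.32 to 0.14, and with the 4 muscle-rich arrays left out it was 0.063. It was -0.025 with the skeletal muscle mean as a covariate and -0.027 with the macrophage mean, and among single arrays it ran from -0.14 without PyMT/SIRT6 replicate 3 to -0.042 without PyMT replicate 3.

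Gclc was at the floor, at 139 to 154 in PyMT/SIRT6 and 141 to 157 in PyMT tumours, and did not pass the filter. Slc7a11 had 5 dim probes, of which 2 had means just above the Y-linked ones. The brightest, ILMN_2740738, lay at 159 to 166 in PyMT/SIRT6 and 159.9 to 172 in PyMT tumours, close to the top of the Y-linked range, and its change was -0.03 ± 0.02 (SE). Another Slc7a11 probe, ILMN_2463432, at 122 to 127 in PyMT/SIRT6 and 125 to 131 in PyMT tumours, was dimmer than any Y-linked mean and had an unadjusted p of 0.0253 (limma adjusted p = 0.979 over all probes). At such levels the arrays cannot show a difference in expression of Gclc or Slc7a11.

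The thioredoxin side was read mainly by Srxn1, sulfiredoxin, which restores overoxidised peroxiredoxins. Its brightest probe, ILMN_2677772, stood at 259.9, 305, 321, 309 and 281 in PyMT/SIRT6 replicates 1 to 5, against 299.5 to 345 with a median of 316 in PyMT tumours. PyMT/SIRT6 replicates 1 and 5 lay below every PyMT tumour and the other 3 lay among them. Both are muscle-rich arrays, but the remaining muscle-rich arrays were not low. PyMT/SIRT6 replicate 4 stood at 309, and PyMT replicate 5, at 345, was the highest of all arrays. The log2 change was -0.12 ± 0.08 (SE), with an interval from -0.30 to 0.05. It was -0.014 with the 4 muscle-rich arrays left out, but -0.12 with the skeletal muscle mean as a covariate. Without PyMT/SIRT6 replicate 1 it was -0.078, and with the mean of its probes -0.050. The second probe, ILMN_2667346, at 219 to 239.6 in PyMT/SIRT6 and 204 to 244 in PyMT tumours, had a change of 0.01 ± 0.05 (SE), so the 2 probes disagree in sign and share little of their pattern (r = -0.11 over the 11 arrays). Txnrd1, thioredoxin reductase, had a single probe at the floor, at 146 to 154 in PyMT/SIRT6 and 152 to 162 in PyMT tumours. Its change of -0.07 ± 0.03 (SE) had an unadjusted p of 0.0182 and a limma adjusted p of 0.979 over all probes.

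With every probe tested separately, 0 of the 21 member probes passed the adjusted threshold in limma, against 3 of all 45281 probes (0.00663%). Sirt6 probes ILMN_2684909 and ILMN_2684910 were among those 3. At an unadjusted p under 0.05 there were 2 member probes, the dim probes of Slc7a11 and Txnrd1 above, where 4.91% of all probes reached that level. Of the 21 probes 16 had negative and 5 positive changes. The mean of 12 probes, from 7 genes, lay above every Y-linked probe mean, and the other 9 lay within that range or below it.

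**Figure D2:**
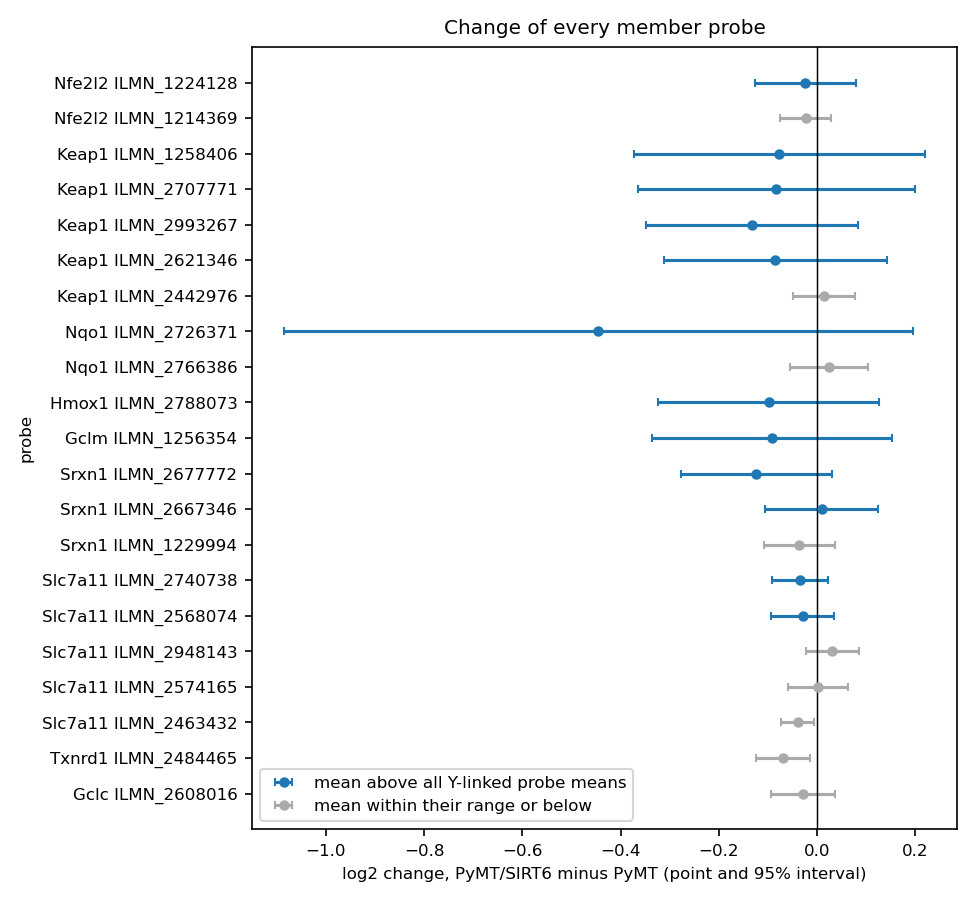
Log2 change, PyMT/SIRT6 minus PyMT, of each of the 21 member probes with its 95% interval from the fit over every probe. Blue marks the 12 probes whose mean lies above all Y-linked probe means and grey the other 9. The bright Nqo1 probe has the widest interval, and the only intervals that exclude 0 are those of 2 grey probes, ILMN_2463432 of Slc7a11 and ILMN_2484465 of Txnrd1.

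Keap1 followed the luminal epithelial markers from tumour to tumour. Over the 11 arrays the brightest Keap1 probe and the mean of the 11 tested luminal markers, among them Krt8, Krt18, Cdh1 and Elf5, had a Pearson r of 0.954 (permutation p = 3.0e-05) and a Spearman rho of 0.973 (permutation p = 2.0e-05). The adjusted permutation p was 0.00168 over 56 relations between a member and a marker list, and this was the only relation past the threshold after adjustment, of 9 with an unadjusted permutation p under 0.05. PyMT replicate 3 was lowest in both, at 10.07 for the luminal mean and 8.61 for Keap1 on the log2 scale, and PyMT replicate 2 was highest in both, at 10.88 and 9.42. Without the 2 arrays farthest from the luminal median, PyMT replicate 3 and PyMT/SIRT6 replicate 4, r was 0.889. Within the 6 PyMT tumours r was 0.992 (exact permutation p = 0.00139). No correlation was computed within the 5 PyMT/SIRT6 tumours; from replicate 1 to 5 their luminal means were 10.49, 10.57, 10.71, 10.31 and 10.51 and their Keap1 levels 8.91, 8.95, 9.28, 8.83 and 9.12 on the log2 scale. Replicate 4 was lowest and replicate 3 highest in both.

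Keap1 had positive correlations with each of the 11 luminal markers, from 0.392 for the claudin Cldn7 to 0.826 for the claudin Cldn4. Its other bright probes had r of 0.763 (ILMN_2993267), 0.747 (ILMN_2707771) and 0.651 (ILMN_2621346) with the luminal mean, and the probe at the floor, ILMN_2442976, had 0.171. Among 14714 other features outside the list 0 had an r as high as that of the brightest Keap1 probe, and the next was Xbp1, a secretory transcription factor named here after its value was seen, at 0.949. Keap1 and the markers were read from the same arrays, and r describes how their levels vary together. The luminal mean showed no separation of the genotypes, lying at 10.31 to 10.71 in PyMT/SIRT6 and 10.07 to 10.88 in PyMT tumours, with 4 of 11 markers higher, 0 past the threshold and none listed at 0.

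**Figure D3:**
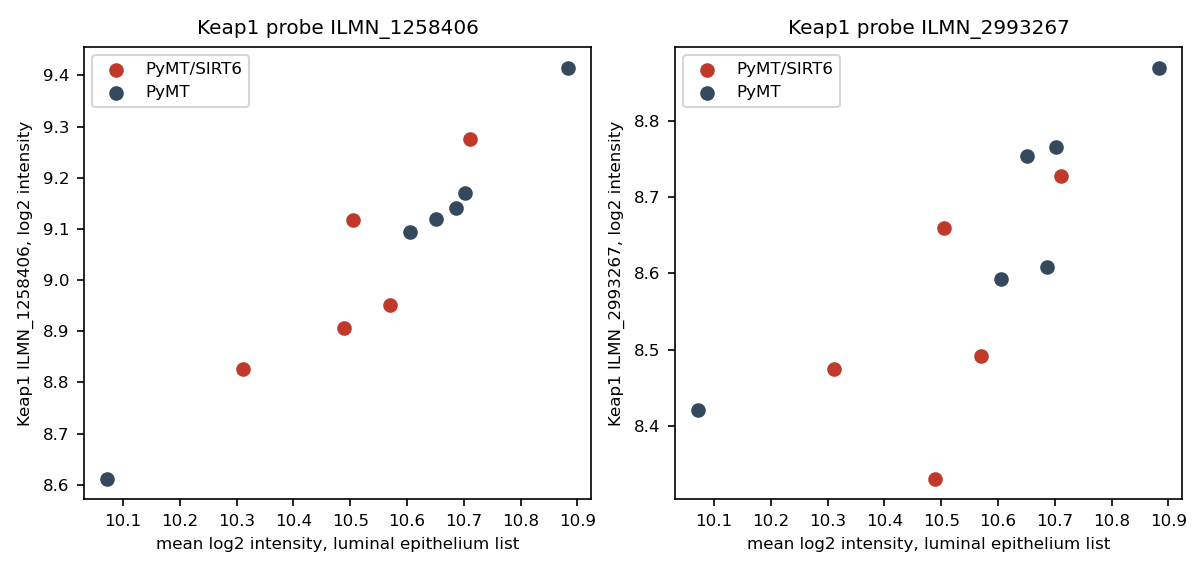
Log2 intensity of 2 Keap1 probes against the mean log2 intensity of the luminal epithelium list, 1 point per array, PyMT/SIRT6 in red and PyMT in dark blue. The left panel shows the brightest probe (r = 0.954) and the right panel ILMN_2993267 (r = 0.763). In both panels Keap1 is highest in PyMT replicate 2, where the luminal mean is highest.

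The members varied together only loosely over the tumours, with r from -0.568 to 0.645 and 15 of the 21 pairs positive. Of 21 pairs among the 7 tested members 2 had an unadjusted permutation p under 0.05, and 0 passed after Benjamini-Hochberg adjustment (lowest adjusted permutation p = 0.269). Both pairs lost strength without the 2 arrays farthest from the median of the gene named first. Nfe2l2 and Hmox1 had an r of 0.632 (permutation p = 0.0287; rho 0.491, permutation p = 0.13), which became 0.286 without PyMT replicates 1 and 6. Nqo1 and Slc7a11 had an r of 0.645 (permutation p = 0.0319; rho 0.418, permutation p = 0.202), which became 0.422 without PyMT replicates 1 and 3, and 0.156 without PyMT replicate 3 alone. PyMT replicate 3 was the highest array for Nqo1, Gclm and Slc7a11 and the lowest for Keap1, while Srxn1 was highest in PyMT replicate 5 and Nfe2l2 in PyMT replicate 1.

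Over the 11 arrays the genes whose pattern was most like that of Nqo1, by Pearson r among 11367 other tested genes, were Scrg1 (0.928), Chchd2 (0.921), Spg21 (0.919), Cryz (0.918) and Fermt1 (0.904). The Chchd2 probe was dim, at 159 to 165 in PyMT/SIRT6 and 163 to 184 in PyMT tumours, close to the top of the Y-linked range. Cryz encodes zeta-crystallin, a quinone reductase, and Fermt1 an adaptor of integrins. Cryz stood at 227, 268, 244, 220.5 and 231 in PyMT/SIRT6 replicates 1 to 5 and at 322 in PyMT replicate 3, against 223 to 277 in the other PyMT tumours. Gsta4, a glutathione transferase for lipid aldehydes, had the highest r of the wider redox genes (0.901) and stood at 738 in PyMT replicate 3, against 300.3 to 379 in the other PyMT tumours. All of these genes were highest in PyMT replicate 3. Without that array r was 0.776 for Scrg1, 0.816 for Cryz, 0.694 for Spg21, 0.613 for Chchd2, 0.551 for Fermt1 and 0.535 for Gsta4.

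**Figure D4:**
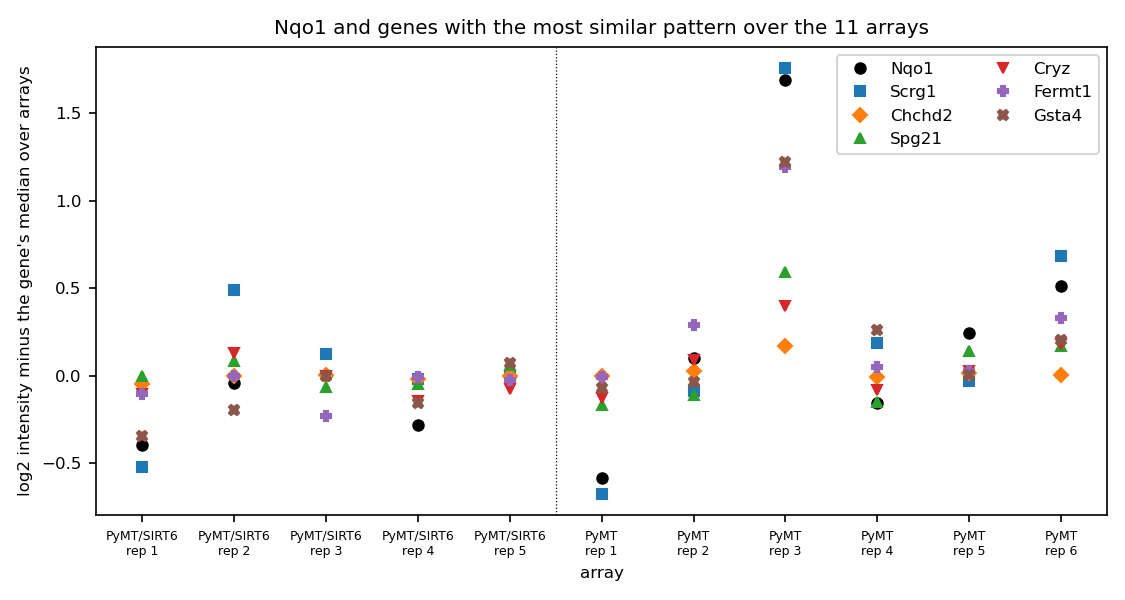
Log2 intensity minus the gene's median over the 11 arrays for Nqo1, the 5 genes with the most similar pattern and Gsta4, by array, PyMT/SIRT6 left of the dotted line and PyMT right of it. Every gene shown has its highest point in PyMT replicate 3, and Chchd2 has the smallest range.

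Other genes of the pathway did not pass the test either. Of 113 listed genes in 7 lists 108 had a probe and 90 were tested. In limma 0 passed the adjusted threshold and 4 had an unadjusted p under 0.05 (4.44%, against 4.43% of all features). Of the 90 genes 40 had positive and 50 negative changes, with a median of -0.02.

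Glutathione peroxidases reduce peroxides with glutathione. Of 14 tested genes of glutathione synthesis and peroxide reduction 9 had positive and 5 negative changes (median 0.02). Gpx2, an epithelial glutathione peroxidase, stood at 212, 373, 394, 228 and 211 in PyMT/SIRT6 replicates 1 to 5, against 159 to 232 in PyMT tumours, so replicates 2 and 3 stood above the rest and the groups overlapped. Its change was 0.42 ± 0.17 (SE; limma adjusted p = 0.983), that of Gpx1, the abundant cytosolic form, was 0.21 ± 0.10, and that of Gpx3, the secreted form, was 0.59 ± 0.42. Gpx2 stood at 0.93 with the muscle-rich arrays left out (limma adjusted p = 0.388). The only PyMT/SIRT6 arrays in that fit are replicates 2 and 3, which stood above the rest. With the skeletal muscle mean as a covariate Gpx2 was 0.52. Gpx3 was 0.23 with the skeletal muscle or the macrophage mean as a covariate, 0.37 without PyMT/SIRT6 replicate 5 and 0.93 without PyMT replicate 5. Gpx1 was 0.087 with the muscle-rich arrays left out, 0.26 with the skeletal muscle mean as a covariate and 0.13 without PyMT replicate 5. Its intensity, at 24810 to 29591 in PyMT/SIRT6 and 18190 to 27229 in PyMT tumours, lies near the top of the scale, whose highest value was 40180.3.

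Glutathione transferases, which couple glutathione to electrophiles, had 5 positive and 15 negative changes among 20 tested genes (median -0.03). Gstt2 had a change of 0.34 ± 0.16 (SE) and Gstp2 of 0.29 ± 0.16, while Gsta4 had -0.39 ± 0.20, which was -0.20 without PyMT replicate 3. Gstt2 was 0.21 without PyMT replicate 3, and its second probe had 0.08. Gstp2 was 0.14 without PyMT/SIRT6 replicate 5, 0.085 with the muscle-rich arrays left out, and 0.14 and 0.13 with the skeletal muscle and macrophage covariates. Gstp2 has a close relative in Gstp1, and whether its probe tells them apart was not tested.

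Among 15 tested thioredoxin and peroxiredoxin genes 7 had positive and 8 negative changes (median -0.01). Sesn1, a sestrin, had a change of 0.27 ± 0.13 (SE), the methionine sulfoxide reductase gene Msrb2 of 0.23 ± 0.13 and the thioredoxin reductase gene Txnrd3 of -0.12 ± 0.08. The other Sesn1 probes had 0.05 and 0.18, and the other Msrb2 probe 0.13. With the muscle-rich arrays left out Sesn1 was 0.068 and Txnrd3 0.038, while Sesn1 was 0.24 with the skeletal muscle mean as a covariate. In the NADPH supply and detoxification list 8 of 16 were positive and 8 negative (median -0.0023). Nqo2, the relative of Nqo1, stood at 692, 544, 715, 620.2 and 628 in PyMT/SIRT6 replicates 1 to 5, against 466 to 605 in PyMT tumours, with a change of 0.26 ± 0.11 (SE; limma adjusted p = 0.983), and its other 2 probes had 0.04 and 0.16. Taldo1, transaldolase of the pentose phosphate pathway, had -0.29 ± 0.15, which was -0.072 with the muscle-rich arrays left out. Aldh3a1, an aldehyde dehydrogenase, was dim and had -0.04 ± 0.04.

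The partners and degradation machinery of NRF2 had 5 positive and 6 negative changes among 11 tested genes (median -0.03). Sqstm1, which encodes the autophagy receptor p62 that can sequester KEAP1, had a change of -0.23 ± 0.15 (SE), which was -0.034 with the muscle-rich arrays left out. The KEAP1 binding proteins Dpp3 and Palb2 had -0.17 ± 0.14 and 0.04 ± 0.04, and Dpp3 was 0.054 with the same arrays left out. With the skeletal muscle mean as a covariate Sqstm1 was -0.235 and Dpp3 -0.10. Of 10 haem and iron genes 4 were positive and 6 negative (median -0.04). The ferritin light chain Ftl1 had 0.15 ± 0.12, and its other probe -0.0055. The copper oxidase Cp had -0.16 ± 0.16, and its other probes ran from -0.42 to 0.095. The haem synthesis enzyme Fech had -0.06 ± 0.04, and its other probes ran from -0.015 to 0.016. The 4 genes of superoxide dismutases and catalase split evenly, at 0.12 ± 0.10 for Sod3, -0.07 ± 0.10 for Cat, -0.10 ± 0.14 for Sod2 and 0.01 for Sod1.

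**Figure D5:**
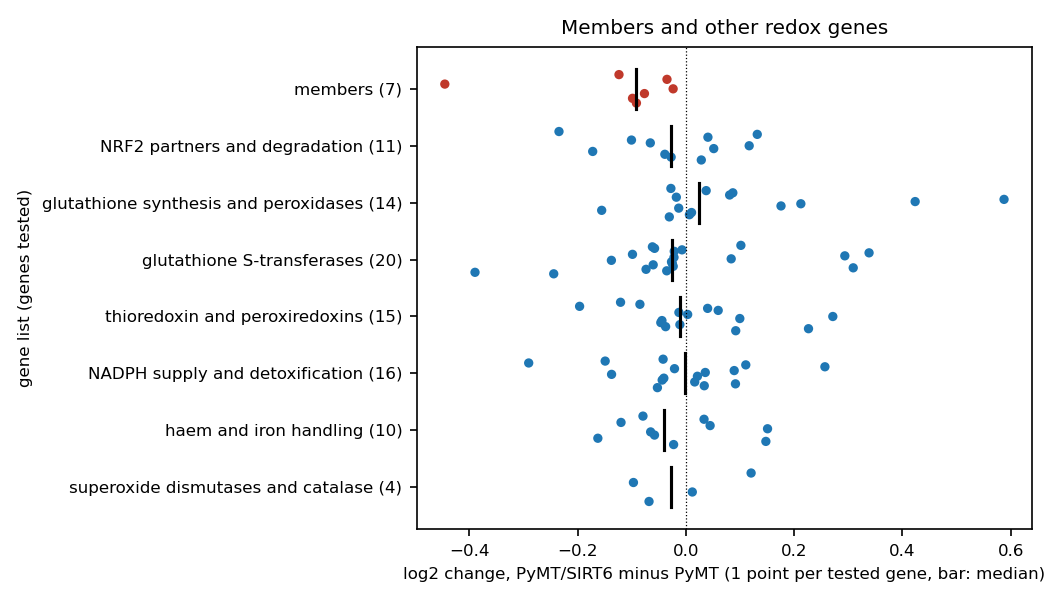
Log2 change, PyMT/SIRT6 minus PyMT, of the 7 tested members (red) and of 90 other redox genes (blue) by list, 1 point per tested gene, with the median of each list as a black bar. The medians of the wider lists lie between -0.04 and 0.02, and the members' median is -0.09.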

How the data were processed

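Per the labels' protocols, RNA of 11 tumours was amplified, labelled with biotin and read on Illumina WG-6 bead arrays for mouse. The table deposited by the authors holds intensity values, not logged. The sources used here do not state how it was normalized. After sorting, arrays differed by at most 1.08%, and they were not scaled again. The number of arrays limits the precision, and the background treatment is not stated; the lowest intensity was 116.66, and folds of dim probes understate changes as far as background remains in the values.

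Genotypes come from the labels; replicate numbers follow deposit order and pair nothing. No 2 arrays were identical (correlations from 0.9445 to 0.9915). Symbols came from the platform annotation (34885 probes with 1 symbol, 18 with several, 10378 with none), of which 34807 matched RefSeq and 0 symbols changed. For each gene the brightest probe over all arrays was kept, giving 29453 features on the log2 scale, and the lower 50% by mean (below 7.309, an intensity of 159) were left out, leaving 14726. limma 3.58.1 in R 4.3.3 fitted PyMT/SIRT6 minus PyMT with an intensity trend and no covariate, with Benjamini-Hochberg adjustment over all features and a threshold of 0.05. Member probes were also tested over all 45281 probes with no filter. The fit was tested on simulated data.

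Correlations used 100000 permutations in numpy 2.4.6. The members, lists and tests were chosen with earlier results of these data known; Y-linked probes as a floor and the settings tried for the Keap1 correlation were chosen after seeing the data. Named genes are all members, Sirt6, up to 3 genes of smallest p per wider list, and the 5 genes most like the member with the largest SD; Sod1, Gsta4 beside Nqo1 and Xbp1 were named after their values were seen. Other filters, probe means, centring, normexp, an added offset of 50, other variance models, array weights, deposit order, marker covariates and left-out arrays were tried.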

Additional observations from a re-analysis of the deposited data

Results flagged for a closer look

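Among 42 sets of values (21 member probes in each genotype), 1 held an array that stood apart from its group, where chance gives about 1 in 20. The dim Srxn1 probe ILMN_1229994 stood at 158 in PyMT/SIRT6 replicate 2, against 143 in the next of the PyMT/SIRT6 tumours and 138 in the lowest of them. This probe lies within the range of the Y-linked probes, and the bright Srxn1 probe showed no such gap.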

How the results depend on the processing

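The count of members past the threshold was 0 in limma under all 14 other settings and with each of the 11 arrays left out, as was that of the wider redox genes, and 0 member probes passed in the 8 other settings and 11 left-out arrays run for them. Of 171 repeats of the changes of the 7 tested members, 168 kept their direction and none passed (lowest adjusted p 0.572). The exceptions were Nfe2l2, which ran from -0.043 to 0.011 (without PyMT replicate 1) with each array left out, and Keap1 at 0.032 and Gclm at 0.063 with the 4 muscle-rich arrays left out, a fit that keeps 2 PyMT/SIRT6 and 5 PyMT arrays. The same fit turned Dpp3 to 0.054, Txnrd3 to 0.038, Cp to 0.0039, Cat to 0.084 and Sod2 to 0.17, the macrophage covariate turned Cat to 0.036, and Sod3 ran from -0.0038 (without PyMT/SIRT6 replicate 2) to 0.17 with each array left out. The change of Nqo1 ran from -0.62 without PyMT replicate 1 to -0.17 without PyMT replicate 3, and was -0.21 with the mean of its probes. Sirt6 moved past the threshold at 0.61 with no filter, with the lower 25% or 75% of features left out and with robust estimation. It also passed at 0.46 with the mean of its probes, 1.04 with normexp, 0.55 with array weights and 0.65 with the skeletal muscle covariate. With each array left out Sirt6 ran from 0.54 to 0.65 and did not pass (limma adjusted p from 0.0546 to 0.257). With the muscle-rich arrays left out it was 0.69 (limma adjusted p = 0.456). The cause of these shifts was not tested. The correlation of Keap1 with the luminal list ran from 0.920 to 0.969 with each array left out and from 0.864 with the mean of its probes to 0.971 with the muscle-rich arrays left out. No paired analysis was possible because the labels give no replicate numbers. Gclc, Txnrd1, Slc7a11 and the dim probes lay at or near the Y-linked floor, which limits what the arrays show for them.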
